A study of Mus musculus with 9 samples.

Results

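Embryoid bodies made from Hbxip-/- (KO) mouse embryonic stem cells were compared with the same KO cells kept for 96 hours without LIF, in 2 libraries of each culture, that is 4 of the 9 libraries of the series. The members were chosen by their library titles, which give the culture and the genotype, and no measured value entered the choice. All cells are E14, an embryonic stem cell line derived from mice of strain 129. The other 5 libraries are 2 of pluripotent KO cells and 1 wild type (WT) library of each of the 3 cultures. The KO libraries of both cultures carry the same Hbxip-/- genotype, so this comparison is of culture within 1 genotype. The labels do not give the age of the embryoid bodies or their medium, nor whether a pair of libraries came from separate clones or cultures. Aggregation, age and medium therefore cannot be told apart, and the p-values reflect no more than the variation among these libraries, which may be technical.

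Embryonic stem cells stay pluripotent in culture with LIF, a cytokine that acts through the receptor chain gp130 and the transcription factor STAT3. Taking LIF away from attached cells and growing cells as floating aggregates, called embryoid bodies, are both standard ways to let them leave that state. In aggregates, cells meet other cells on all sides instead of a flat support, and normally pass through an epiblast-like stage before germ layer genes come on. Hbxip, listed under its current symbol Lamtor5, encodes a subunit of Ragulator, the complex that anchors Rag GTPases at the lysosome and so brings the growth kinase mTORC1 to it when amino acids are present.

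RNA was measured by sequencing, and the files give an expected count and an FPKM value (fragments per kilobase of gene, scaled to sequencing depth) per gene. The 4 libraries held between 10276477 and 10863845 counts each. Lamtor5 was at 22.99 and 18.3 FPKM in the KO embryoid bodies, 16.2 and 15.5 in KO cells without LIF and 31.0 and 29.1 in pluripotent KO cells, against 41.8, 38.5 and 40.7 in the WT libraries of the same cultures in that order. Gene-level RNA was thus lower in every KO library than in the WT library of its culture, and not absent. The part of the gene that was removed is not given in the sources used here, so this level does not test the genotype further. Between the KO cultures Lamtor5 differed by 0.31 on the log2 scale (SE 0.14, edgeR adjusted p = 0.112), which did not pass. Stem cell identity was checked by Pou5f1, the core pluripotency factor Oct4, at 729 and 678 FPKM in embryoid bodies and 709 and 648 without LIF. The first principal component of the 4 libraries carried 73.1% of their variance and separated the cultures.

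Of 13990 genes tested, 4793 (34.3%) differed between KO embryoid bodies and KO LIF withdrawal at an adjusted p below 0.05 in edgeR's quasi-likelihood test. In embryoid bodies 2336 genes rose (16.7% of those tested) and 2457 fell (17.6%). The counts of rises and falls in the gene lists below are to be read against these shares. Most differences were small: the median absolute log2 fold change was 0.512 among called genes, while 569 genes rose and 222 fell by at least 2-fold. FPKM values of the cultures did not overlap for 9546 genes (68.2%), so lack of overlap in a 2 against 2 comparison is common here. An exact permutation test of 2 against 2 libraries can give no p below 0.33, so calls rest on the spread within the 3 KO pairs, which gives 3 residual degrees of freedom. Scaled by library totals alone, without the TMM factors that equalise library composition, 3020 genes were higher and 1885 lower, and the median of all genes moved up by 0.0756 on the log2 scale. FPKM values carry no such factor: their median log2 ratio was 0.0882, against a median fitted log2 fold change of 0.0149, so a small fitted fall can stand beside nearly equal FPKM values. Of the called genes 1, Sall4, had FPKM means in the other direction, 84.3 and 82.3 in embryoid bodies against 80.0 and 80.1. Its fitted fall was 0.206 on the log2 scale, more than the 0.0756 by which scaling moved the median. The difference in scaling thus does not account for all of this conflict, and its source was not tested.

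The largest rises were of genes near the limit of detection in KO cells without LIF. Fxyd2, a regulatory subunit of the sodium pump, stood at 15.6 and 13.9 FPKM in KO embryoid bodies and 0.31 and 0.17 without LIF. Its pooled counts were 170 and 3, a ratio of 55.7 with a 95% counting interval from 18.7 to 273. Pluripotent KO cells held 7.83 and 6.85 FPKM of Fxyd2, so LIF withdrawal had the low libraries. Ptgds, prostaglandin D synthase, stood at 10.4 and 9.39 FPKM against 0.47 and 0.59 (log2 fold change 4.11, SE 0.36, edgeR adjusted p = 1.77e-05). Here the pluripotent KO libraries were also low, at 0.37 and 0.75. Slc6a12, a betaine and GABA transporter, was at 3.40 and 3.04 against 0.14 in both libraries without LIF. Adh1, an alcohol dehydrogenase that oxidises retinol, was at 7.36 and 6.92 against 0.84 and 0.62. Gstm3, a glutathione transferase, was at 3.35 and 2.95 against 0.18 and 0.36. Rem2, a small GTPase, was at 1.76 and 3.0 against 0.05 and 0.10, and the annexin gene Anxa8 at 2.93 and 1.35 against 0.05 and 0.15. Rem2 and Anxa8 were low in pluripotent KO cells too, at most 0.31 FPKM. Lack of overlap in FPKM between the cultures was a condition for listing the largest rises. H2ac24, a replication-dependent histone gene from a family of near-identical copies, was at 63.0 and 5.56 FPKM against 0 in both libraries without LIF. Its pooled counts were 299 against 0, at least 98.0-fold higher when 3 counts over the pair are taken as the floor. The gap between the embryoid body libraries and the shared sequence of histone genes make this value uncertain. Rsc1a1 lies within another gene, and Mir5113, Snora43 and Scarna13 are small RNA genes. Their reads may belong to host transcripts, since the strand of the counting is not given in the sources used here.

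Among the largest falls were developmental regulators. Gbx2, a homeobox gene that LIF induces in stem cells and that also marks early neural tissue, was at 2.15 and 1.60 FPKM in KO embryoid bodies and 11.8 and 8.88 without LIF (log2 fold change -2.54, SE 0.20, edgeR adjusted p = 8.81e-06). In pluripotent KO cells it was at 26.8 and 27.5, so embryoid bodies held the lowest level of the 3 KO cultures. Inhbb, the beta B subunit of activin and inhibin, was at 0.50 and 0.26 against 1.84 and 1.95. Gata3, a trophoblast and T cell transcription factor, was at 0.42 and 0.46 against 2.24 and 1.94. Smyd1, a muscle histone methyltransferase, was at 1.76 and 1.54 against 9.31 and 7.18. Snx9, an endocytic sorting nexin, was at 1.73 and 2.0 against 7.87 and 7.14. Gadd45g, a growth arrest and neural differentiation gene, was at 0.55 and 0.89 against 2.01 and 3.38. Ankrd44 and the tetraspanin Tspan32 fell by 2.24 and 2.11 on the log2 scale. Lack of overlap in FPKM between the cultures was a condition for naming these 8 genes, so it is no result about them. Dgkeos, an antisense gene, and the small RNA genes Mir8114 and Snord55 also belong to the largest falls. They are uncertain for the reason of strand given above. Mir8114 had 0 counts in the embryoid bodies against 70 without LIF, at least 23.7-fold lower.

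**Figure D1:**
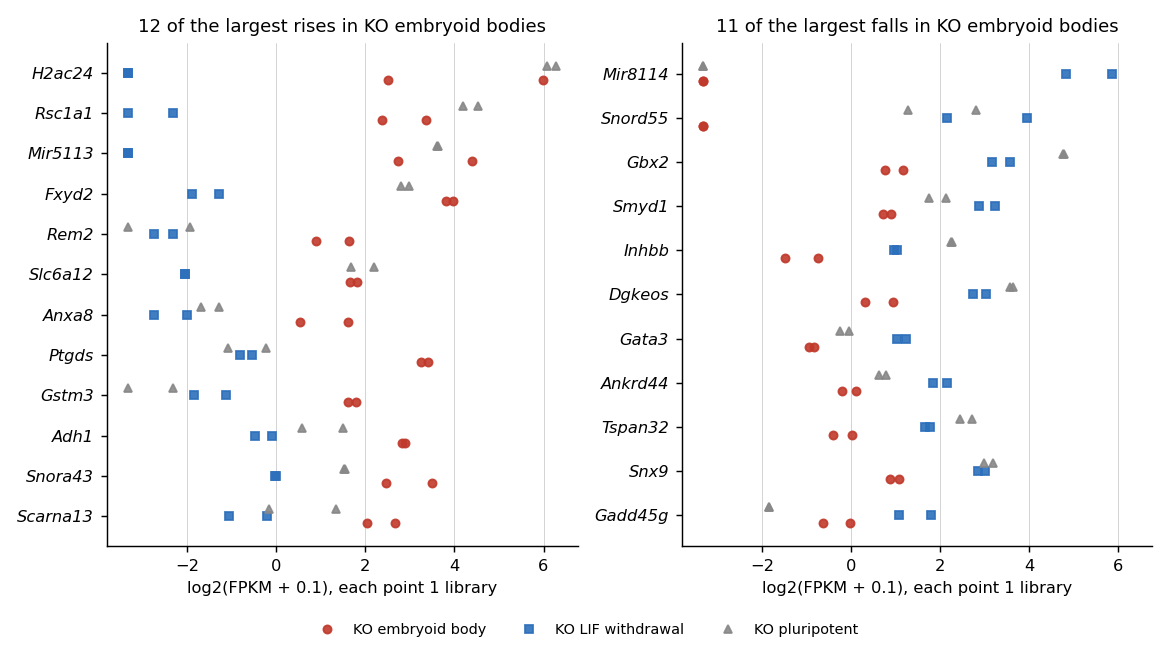
Level of 12 genes with the largest rises (left) and 11 with the largest falls (right), as log2(FPKM + 0.1), in the 2 libraries of KO embryoid bodies (red circles), KO LIF withdrawal (blue squares) and pluripotent KO cells (grey triangles). Genes were chosen so that red and blue points do not overlap. H2ac24 has the widest gap between the embryoid body libraries, 63.0 against 5.56 FPKM.

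Pluripotency genes did not move as one group. Sox2, the partner of Oct4, was at 437 and 410.1 FPKM in KO embryoid bodies and 236 and 267 without LIF (log2 fold change 0.68, SE 0.07, edgeR adjusted p = 5.24e-05). Pluripotent KO cells had less, 169.9 and 186, so the embryoid body libraries were the highest of the 6 KO libraries. Pou5f1 differed by -0.04 (SE 0.07, edgeR adjusted p = 0.732) and Nanog, at 181 and 144 FPKM against 164 in both libraries without LIF, by -0.11 (SE 0.10, edgeR adjusted p = 0.407). Of 16 general pluripotency genes, 2 rose and 8 fell, and the median log2 fold change was -0.191 against 0.0149 for all tested genes. The other gene that rose was Dppa5a, an RNA-binding protein of stem cells. Those that fell include Trim71, a let-7 target that controls mRNA stability, at 8.92 and 9.60 against 16.6 and 16.7, and L1td1, an RNA-binding protein, at 198 and 188 against 298 and 281. Limma on log2(FPKM + 1) called 5 falls in this list.

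Among 17 genes of the naive state, which resembles the preimplantation epiblast, 6 rose and 4 fell. Klf2, a naive-state transcription factor, was at 422 and 401 FPKM in KO embryoid bodies and 203 and 182 without LIF (log2 fold change 1.02, SE 0.08, edgeR adjusted p = 7.99e-06). Pluripotent KO cells held 427 and 453, so the embryoid body libraries lay near them and well above LIF withdrawal. Fbxo15, an Oct4 and Sox2 target, was at 70.4 and 67.0 against 39.4 and 41.8, beside 76.5 and 73.9 in pluripotent KO cells. Tcl1, an AKT cofactor, was at 121 and 119.6 against 81.7 and 79.3. Tfcp2l1, which acts with LIF and STAT3 in the naive network, went the other way, at 21.9 and 21.1 against 33.2 and 29.5. Tet2, a 5-methylcytosine dioxygenase, was also lower, at 13.7 and 12.1 against 18.1 and 20.8. Esrrb, another naive factor, differed by 0.19 (SE 0.07, edgeR adjusted p = 0.0709) and did not pass.

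Formative and primed genes, which come on as the epiblast prepares for lineage choice, were also mixed: 5 of 15 rose and 3 fell. Otx2, the transcription factor that drives this step, was at 113 and 129.7 FPKM in KO embryoid bodies and 50.3 and 75.2 without LIF (log2 fold change 0.89, SE 0.15, edgeR adjusted p = 0.000887). Both values without LIF already exceeded the 7.94 and 11.5 of pluripotent KO cells. Zic2, a zinc finger factor of the primed epiblast, was at 53.9 and 53.7 against 23.3 and 33.2. Fgf5, the classical epiblast growth factor gene, was at 8.11 and 10.5 against 6.04 and 5.29. Lef1, a WNT-responsive transcription factor, fell to 0.70 and 1.43 from 2.28 and 3.19, Cdh2, N-cadherin, to 0.48 and 0.61 from 1.17 and 1.37, and Dnmt3a, a de novo DNA methyltransferase, to 34.8 and 40.0 from 51.0 and 56.5. The count of rises depends on the test: DESeq2 called 3 and limma on log2(FPKM + 0.1) called 1, and without the second embryoid body library 2 were called.

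Primitive streak and mesoderm lists held 1 call each. T, the primitive streak marker Brachyury, was near 0 in both KO cultures, at 0.05 and 0.18 FPKM in embryoid bodies and 0.18 in both libraries without LIF, against 24.03 in the WT embryoid bodies and 17.5 in WT cells without LIF. Of 18 primitive streak and mesendoderm genes 13 could be tested, and 5 of those 13 had so few counts that their fold change means little. Chrd, a BMP antagonist, was the 1 gene called by edgeR, at 1.88 and 1.67 against 0.90 and 1.17. DESeq2 did not call it, nor did the fits without the first LIF withdrawal library or without either embryoid body library. Eomes, a T-box gene of streak and trophoblast, had the highest level of the list at 14.8 and 14.9 against 10.4 and 14.2, without passing. Of 11 tested mesoderm and cardiac genes, 1 fell, Twist1, a call that was lost in 7 of 17 alternatives, among them DESeq2 and library totals alone. Of 9 tested blood and endothelium genes, 1 rose, the angiopoietin receptor gene Tek, at 5.16 and 4.23 against 2.31 and 2.35. None of the 6 tested HOX genes was called in edgeR's test. The summed FPKM of the primitive streak list was 15.8 to 18.8 without LIF and 20.2 to 21.4 in embryoid bodies.

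Endoderm, neural and trophoblast lists held single genes that moved in opposite directions. Trh, thyrotropin-releasing hormone, is abundant in these cells and was at 605 and 784 FPKM in KO embryoid bodies and 204 and 258 without LIF. Pluripotent KO cells held 535 and 589, so the libraries without LIF were the low ones. Cldn6, a claudin of early epithelia, was at 16.1 and 16.2 against 2.95 and 3.90 (log2 fold change 2.16, SE 0.13, edgeR adjusted p = 2.06e-06). Prdm1, the repressor BLIMP1, was at 4.88 and 5.36 against 2.34 and 2.64. Of the defining endoderm factors, Gata6 fell to 0.36 and 0.32 from 0.69 and 1.0, a call lost in DESeq2, in limma and without either embryoid body library or the second LIF withdrawal library. Foxa2 had 1 pooled count in embryoid bodies and 6 without LIF, and Sox17 was too low to test. Of 12 tested neuroectoderm genes 3 rose and 5 fell. Sox1, the earliest neural plate marker of the list, was at 3.53 and 2.08 against 8.99 and 8.82. Crabp1, a retinoic acid binding protein, was at 22.6 and 21.2 against 6.76 and 8.67, and Sox11 at 4.61 and 5.83 against 2.28 and 3.17. Pax6, at 1.11 and 1.15 against 0.56 and 0.87, did not pass. In the trophoblast list Tfap2c, a factor shared by trophoblast, germ cells and naive cells, was at 9.07 and 9.98 against 1.41 and 2.46 (log2 fold change 2.24, SE 0.25, edgeR adjusted p = 7.09e-05), while Gata3 and Tead4 fell and Cdx2 had 1 pooled count against 0. Of 16 tested extraembryonic endoderm genes, Apoe, an apolipoprotein, rose and 4 fell; DESeq2 called none of those 4 falls. Of 15 fibroblast markers, which feeder cells would carry, 7 could be tested, and 2 of the 15 were at 0 in all 4 libraries. Col1a1, at 1.33 and 1.52 against 0.26 and 0.54, and Thy1 rose, and Vim and Fbn1 fell. The summed FPKM of the list was 158 to 165 without LIF and 114 to 127 in embryoid bodies, and the part of feeder cells in other results was not tested. In bulk RNA, fewer cells of a type and less RNA per cell cannot be told apart.

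LIF pathway genes were compared next, because LIF withdrawal is one arm of the comparison. Of 15 tested, 5 rose and 4 fell. Il6st, the signalling chain gp130, was at 20.8 and 22.5 FPKM in KO embryoid bodies and 13.1 and 16.1 without LIF, and Stat3 at 11.9 in both against 8.49 and 8.94; both rose. Lifr, the ligand-binding chain, was at 14.2 and 13.8 against 13.9 and 14.3. Socs3, the feedback inhibitor that STAT3 induces, was lower still in embryoid bodies, at 4.24 and 4.28 against 7.19 and 6.56. Pluripotent KO cells had 67.5 and 67.1 of Socs3, so both cultures lay far below the level with LIF. Pim1, a kinase gene induced by STAT3, was at 60.4 and 63.8 against 81.9 and 82.4. Junb, an AP-1 subunit, rose to 12.6 and 10.5 from 6.33 and 5.57, against 62.3 and 62.2 in pluripotent KO cells.

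Nodal signalling, which holds the epiblast between pluripotency and streak formation, had more falls than rises: 12 of 21 tested genes fell and 3 rose, with a median log2 fold change of -0.379. Among the ligands, Nodal was at 42.6 and 33.8 FPKM in KO embryoid bodies and 46.7 in both libraries without LIF (log2 fold change -0.36, SE 0.10, edgeR adjusted p = 0.0136), and Gdf3 at 44.1 and 36.7 against 66.6 and 53.8. Tdgf1, the co-receptor Cripto, was at 362 and 336 against 412 and 480.3. Foxh1, the DNA-binding partner of SMAD2, was at 37.1 and 36.1 against 53.7 and 49.6. Pcsk6, a convertase that cleaves the Nodal precursor, was at 14.9 and 15.6 against 29.1 and 28.7 (log2 fold change -0.998, SE 0.08, edgeR adjusted p = 8e-06), while Furin, the other convertase of the list, rose to 10.2 and 11.9 from 6.45 and 7.62. The feedback target Lefty2, at 215 and 238 against 202 and 219, did not pass. Lefty1, at 63.5 and 54.0 against 59.2 and 70.6, overlapped between the cultures. Limma on log2(FPKM + 1) called 6 falls in this list, so the size of this count depends on the test.

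In the FGF and ERK list 4 of 24 rose and 5 fell. Over all tested genes 16.7% rose and 17.6% fell. The counts of the FGF, BMP, WNT and Hedgehog and Notch lists lie near these shares. Etv4, an ETS factor that FGF induces, was at 23.96 and 24.2 FPKM against 63.1 and 58.2, and at 150.6 and 139 in pluripotent KO cells (log2 fold change -1.41, SE 0.09, edgeR adjusted p = 2.06e-06). Etv1 fell as well, to 11.9 and 13.3 from 18.7 and 19.4, but Etv5, at 112 and 118 against 119 and 123, did not pass. Spry2, a feedback inhibitor of the same pathway, moved the other way, at 49.3 and 52.6 against 32.6 and 30.5. Fgfr2, a receptor, was at 2.23 and 2.16 against 0.92 and 0.73. For BMP, 3 of 19 tested genes rose and 4 fell. The rises were of ID genes, inhibitors of differentiation that BMP induces: Id2 at 102 and 107 against 53.4 and 64.1, Id4 at 4.82 and 5.13 against 1.12 and 2.17, and Id1 at 179.7 and 169 against 141 and 131. The receptors Bmpr1a and Bmpr2 fell, and Bmp4, at 64.3 and 50.3 against 56.6 and 46.5, did not pass. Of 29 tested WNT genes 4 rose and 4 fell. The target Axin2 fell to 6.73 and 6.85 from 10.07 and 9.19, Tcf7 rose to 28.9 and 32.4 from 18.1 and 21.8, and Ctnnb1, the transducer beta-catenin, was at 309 and 299 against 299 and 292. Of 19 tested Hedgehog and Notch genes 4 rose and 4 fell, and of 17 retinoic acid genes 4 rose and 5 fell. Gli1, the Hedgehog target, was at 10.3 and 9.35 against 4.71 and 5.59. Stra8, a retinoic acid target of germ cells, was at 21.4 and 15.5 against 40.5 and 45.1.

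**Figure D2:**
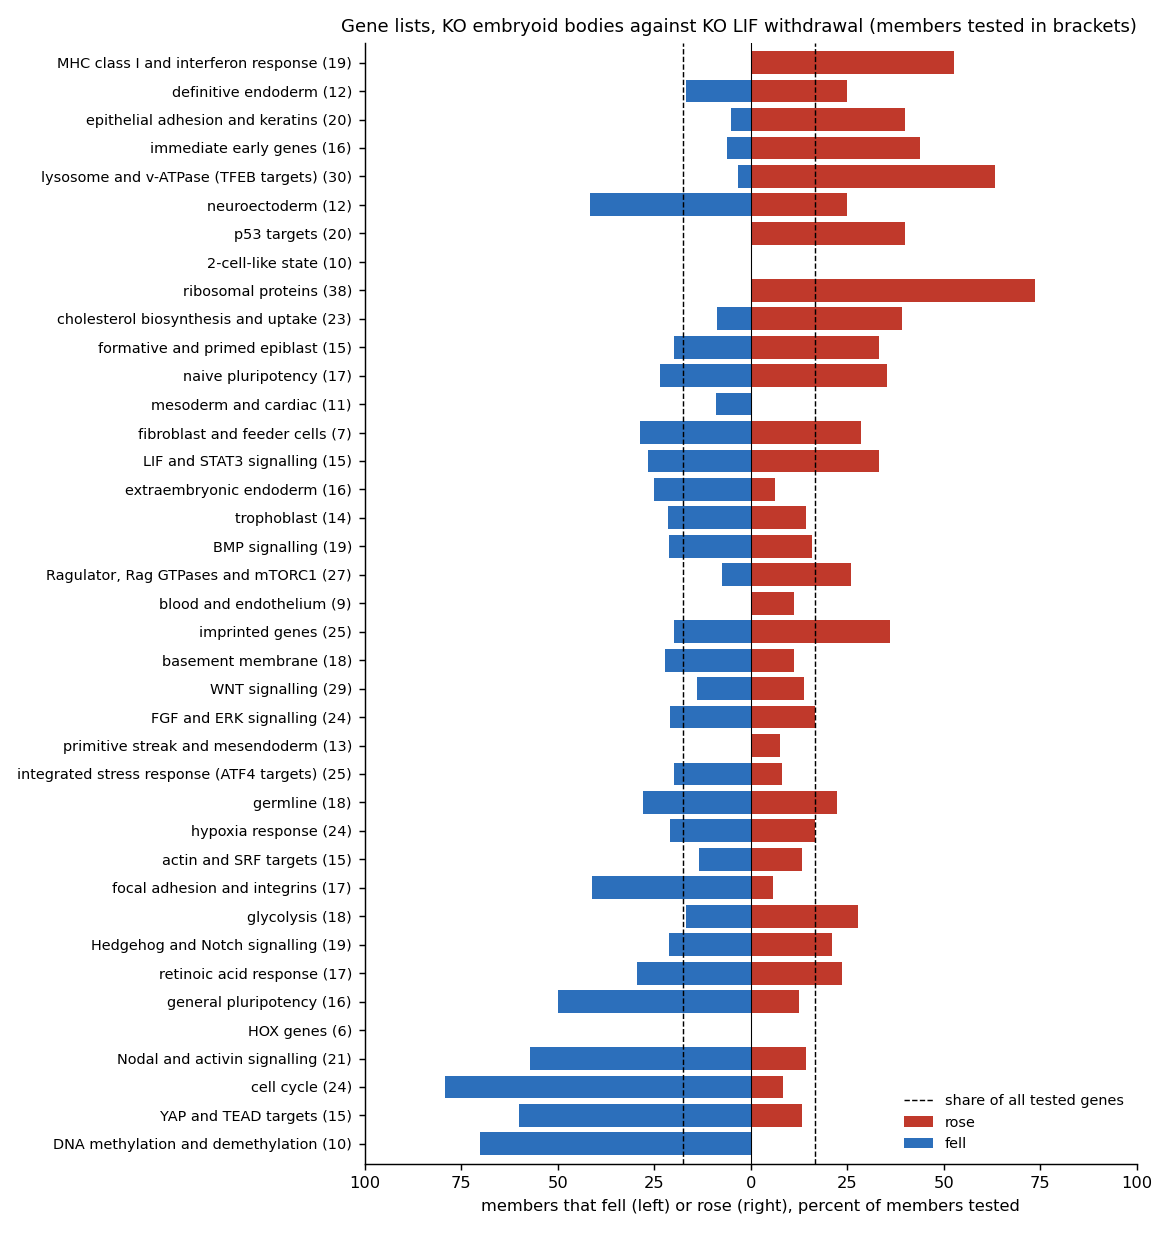
Percent of the tested members of each of 39 gene lists that rose (red, right) or fell (blue, left) in KO embryoid bodies against KO LIF withdrawal, with the number tested in brackets and lists ordered by median log2 fold change. Dashed lines mark the share over all tested genes, 16.7% rising and 17.6% falling; bars past the left line include cell cycle (19 of 24), DNA methylation and general pluripotency (8 of 16), and bars past the right line include ribosomal proteins (28 of 38), lysosome and p53 targets (8 of 20).

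Of 20 epithelial adhesion genes 8 rose and 1 fell in KO embryoid bodies, with a median log2 fold change of 0.358. Cdh1, E-cadherin, was at 92.6 and 104 FPKM in KO embryoid bodies and 71.7 and 72.9 without LIF (log2 fold change 0.37, SE 0.07, edgeR adjusted p = 0.00244). Cdh3, P-cadherin, was at 8.63 and 8.25 against 2.67 and 3.94, and the keratin Krt18 at 13.9 and 15.2 against 5.56 and 6.31. Grhl2, a transcription factor of epithelia, was at 8.03 and 11.2 against 5.52 and 5.19. Epcam and Cldn4 also rose, and Tjp1, the tight junction scaffold ZO-1, fell to 29.6 and 31.1 from 36.2 and 38.9. Krt8, the partner of Krt18, was at 9.18 and 8.64 against 10.5 and 9.11 and did not pass.

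Focal adhesions hold cells to their support, and of 17 tested genes of these contacts 7 fell and 1 rose. Itga3, an integrin chain, was at 13.7 and 13.8 FPKM against 23.9 and 21.8. Tln1, talin, which links integrins to actin, was at 18.9 and 19.2 against 34.2 and 30.0, and Actn4, an actin crosslinker, at 186 and 176 against 289 and 279. Flna, filamin A, was at 56.4 and 61.1 against 85.6 and 85.0. Itgb5 was the gene that rose, and Itgb1 did not pass. The list's median of -0.0698 turned to 0.00595 under library totals alone, so the 7 falls are of some members and not of the list as a whole. Of 15 tested targets of YAP and TEAD, a pathway that reads cell shape and tension, 9 fell and 2 rose, with a median of -0.477. Amotl2, a junction protein, was at 16.0 and 15.8 against 31.2 and 27.1, Nt5e at 3.80 and 3.06 against 8.01 and 7.71, and Ccn1, a classical target, at 2.45 and 2.23 against 5.18 and 4.27. The other classical target, Ccn2, was at 18.8 and 18.9 against 16.8 and 16.4, and Axl and Nuak2 rose. Of 18 basement membrane genes 2 rose and 4 fell: Col4a1, a type IV collagen, went to 22.7 and 16.6 from 29.3 and 30.4, while Serpinh1, the collagen chaperone, rose to 34.1 and 45.4 from 21.99 and 26.6. Lima1, an actin-binding protein, had the clearest rise among 15 actin and SRF targets, at 55.6 and 59.1 against 17.2 and 20.1 (log2 fold change 1.55, SE 0.08, edgeR adjusted p = 1e-06); 2 of those 15 genes rose and 2 fell.

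Most cell cycle genes fell: 19 of 24 were lower in KO embryoid bodies, 2 were higher, and the median log2 fold change was -0.439. Top2a, a topoisomerase of dividing cells, was at 107.6 and 106 FPKM against 166 and 176 (log2 fold change -0.75, SE 0.07, edgeR adjusted p = 2.95e-05). Mki67, the proliferation marker Ki-67, was at 28.8 and 28.5 against 38.9 and 41.0. Mcm5, a helicase subunit of replication origins, was at 123 and 122 against 177 and 167. Ccne1, cyclin E1, was at 63.7 and 66.9 against 110.3 and 92.2. The genes that rose, named after their values were seen, were the inhibitors Cdkn2a, at 11.2 and 12.3 against 5.63 and 5.09, and Cdkn2b. DESeq2 called 17 falls and no rises in this list. Another inhibitor, Cdkn1c, fell to 3.46 and 4.09 from 8.93 and 7.23. Myc, a growth regulator counted among the immediate early genes, fell to 32.8 and 30.2 from 63.2 and 52.0. Of 20 tested p53 targets 8 rose and none fell. Cdkn1a, the cell cycle inhibitor p21, was at 49.8 and 36.9 against 20.6 and 19.4 (log2 fold change 1.04, SE 0.12, edgeR adjusted p = 9.47e-05), beside 37.5 and 36.4 in pluripotent KO cells. Trp53inp1 was at 47.3 and 39.8 against 27.9 and 26.1, and Mdm2, the p53 antagonist, at 34.7 and 31.7 against 31.5 and 25.5 did not pass. The first embryoid body library was higher than the second for most of these genes, and without it 5 rises were called in the list. Of 16 immediate early genes, which answer signals within minutes and also respond to handling, 7 rose and Myc fell: Fos was at 4.20 and 4.02 against 0.66 and 1.14, Ier5 at 3.22 and 3.69 against 0.62 and 0.70, and Egr1, at 9.28 and 7.29 against 6.43 and 6.71, did not pass. The part of handling in these values was not tested.

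DNA methylation genes also fell: 7 of 10 were lower and none was higher, with a median of -0.55. They are long, with a median of 4735 bases, and with the length trend removed 6 fell and the median was -0.333, while limma on log2(FPKM + 1) gave 5 falls and -0.35. Uhrf1, which brings the maintenance enzyme to replicated DNA, was at 93.9 and 86.0 FPKM against 142 and 132. Dnmt1, that enzyme, was at 67.5 and 71.3 against 85.9 and 81.5, and Tet1, a demethylation enzyme, at 20.2 and 20.6 against 30.4 and 27.7. Dnmt3b, at 34.9 and 41.3 against 38.7 and 34.9, and Dnmt3l, at 609 and 586 against 596 and 527, overlapped between the cultures. Enzymes that write the mark and enzymes that remove it are both among the falls.

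Lysosomal genes rose in KO embryoid bodies: 19 of 30 were higher and 1, Gusb, was lower, with a median log2 fold change of 0.333. These genes encode the hydrolases, membrane proteins and proton pump of the compartment on which Ragulator sits, and many are targets of TFEB, a transcription factor that mTORC1 keeps out of the nucleus. Ctsb, the protease cathepsin B, was at 51.2 and 44.8 FPKM against 27.7 and 28.1 (log2 fold change 0.71, SE 0.08, edgeR adjusted p = 5.71e-05), beside 55.3 and 55.4 in pluripotent KO cells. Ctsa, a protease that protects other hydrolases, was at 100.3 and 98.4 against 62.9 and 65.2, and Gaa, acid glucosidase, at 50.6 and 48.3 against 29.6 and 29.9. The membrane marker Lamp1, at 328 and 291 against 289 and 277, did not pass. Pump subunits divided: Atp6v0e and Atp6v0d1 rose, while Atp6v1a, Atp6v1b2 and Atp6v1h did not pass. With the trend of fold change on gene length removed, an alternative chosen after seeing the data, 15 rose and 1 fell. DESeq2 and library totals alone called no fall in this list.

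The promoters of lysosomal genes were searched for TCACGTGA, the 8 letters at the core of the site that TFEB is known to bind, which reads the same on both strands. RefSeq promoter windows of GRCm38.p6, from 250 bases before to 50 after the gene start, were found for 23 of the 30 genes, and 8 of them hold the motif, against 2.15% of the 10925 tested genes with a window. Of the 15 that rose 6 hold it, and of the 8 others 2 do. The list was drawn up around TFEB targets, so a share above that of all genes comes with the choice of list. The printed windows hold it in 2 genes that rose and in a pump gene that did not pass, as a description and not as evidence of binding. Capitals mark the motif, which starts 99, 46 and 132 bases before the gene start. The windows are chr7:142387899-142387946 on the minus strand, chr8:3500453-3500500 on the plus strand and chr16:44139364-44139411 on the minus strand.
Ctsd: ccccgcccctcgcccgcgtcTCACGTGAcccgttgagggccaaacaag
Mcoln1: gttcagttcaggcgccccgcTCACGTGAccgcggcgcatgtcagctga
Atp6v1a: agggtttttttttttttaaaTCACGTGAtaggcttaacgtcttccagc
Ctsd, cathepsin D, was at 258 and 253 FPKM against 181 and 172, Mcoln1, a calcium channel of the lysosome, at 27.1 and 31.2 against 20.7 and 24.5, and Atp6v1a at 55.0 and 55.7 against 57.3 and 57.8. The motif is thus found both in genes that differed between the cultures and in genes that did not pass.

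Among 27 genes of Ragulator, the Rag GTPases and mTORC1, 7 rose and 2 fell, against 16.7% and 17.6% of all tested genes. The list's median log2 fold change was 0.0785, against 0.0149 for all tested genes. With the length trend removed these medians were 0.0211 and -0.0282. Lamtor2, another Ragulator subunit, was at 76.3 and 63.5 FPKM against 43.7 and 43.3 (log2 fold change 0.61, SE 0.11, edgeR adjusted p = 0.00144), and Lamtor3 also rose, while Lamtor1 and Lamtor4 did not pass. Rragb, a Rag GTPase, was at 26.1 and 26.9 against 15.7 and 16.3, and Slc38a9, the lysosomal arginine sensor, at 2.15 and 2.69 against 1.25 and 1.33. The falls were of Rptor, the substrate-binding subunit of mTORC1, at 8.61 and 9.89 against 13.3 and 12.5, and of Mtor itself, by 0.24 on the log2 scale. The call of Mtor was lost in DESeq2, under library totals alone and in limma on log2(FPKM + 1), which each called 1 fall, that of Rptor.

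Of 38 ribosomal protein genes 28 rose and none fell, with a median of 0.265. Rps19 was at 889 and 877 FPKM against 519 and 566, and Rps16 at 2080.4 and 2008 against 1277 and 1246. Pluripotent KO cells held 2132 and 2184 of Rps16. These genes are short, with a median length of 863 bases, and short genes as a whole were higher in embryoid bodies: in 5 equal bins of tested genes by length, the shortest had a median of 0.0986 and the longest -0.119. With the length trend removed 8 of 38 rose and the median was 0.132. Leaving out the first or the second embryoid body library left 17 or 15 rises, and leaving out the second library without LIF left 18.

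Cholesterol genes rose in 9 of 23 cases and fell in 2, with a median of 0.235. Msmo1, a sterol oxidase, was at 62.0 and 62.6 FPKM against 33.3 and 32.8 (log2 fold change 0.84, SE 0.07, edgeR adjusted p = 1.5e-05), beside 67.8 and 69.3 in pluripotent KO cells. Dhcr7, the last reductase of the pathway, was at 15.0 and 18.4 against 9.75 and 9.99. Srebf2, their main transcriptional activator, was at 40.8 and 44.1 against 37.0 and 38.5 and did not pass. DESeq2 called 4 rises and 1 fall in the list. Neither fall was called under library totals alone or by limma on log2(FPKM + 1). For glycolysis, 5 of 18 genes rose and 3 fell, against 16.7% and 17.6% of all tested genes. Isozymes differed: Ldhb was at 414 and 419 against 124 and 162 (log2 fold change 1.48, SE 0.10, edgeR adjusted p = 3.1e-06) and Eno2 at 7.59 and 8.73 against 2.20 and 2.81, while Ldha, at 1042 and 1128 against 1167 and 1257, and Eno1 did not pass. Gapdh was at 6389 and 6260 against 6018 and 5695. None of the 3 falls was called by limma on log2(FPKM + 1).

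Hypoxia genes could not be read as a group, since the libraries without LIF differed from each other. Ddit4 was at 13.0 and 28.2 FPKM in them, Vegfa at 3.18 and 7.78 and Bnip3 at 99.9 and 161, the second library being higher each time. Embryoid bodies lay between these values for each gene, at 21.6 and 28.0, 4.33 and 5.85, and 107 and 131. Of 24 genes 4 rose and 5 fell, near the shares over all tested genes. The median moved from -0.0498 to 0.382 without the second LIF withdrawal library. Ndrg1 and Pfkfb3 fell and Mxi1 rose without overlap between the cultures. Of 25 genes that ATF4 activates in amino acid and unfolded protein stress, 2 rose and 5 fell; the cystine transporter Slc7a11 was at 126 in both embryoid body libraries against 160.0 and 163.

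Genes of MHC class I presentation and the interferon response rose in 10 of 19 tested cases, and none fell. Ifitm1, an interferon-induced membrane protein that stem cells also express without interferon, was at 120.5 and 112 FPKM in KO embryoid bodies and 20.7 and 18.9 without LIF (log2 fold change 2.48, SE 0.11, edgeR adjusted p = 1.25e-07). Pluripotent KO cells held 11.6 and 14.6. Ifitm3 was at 72.3 and 70.4 against 27.7 and 24.1, and Ifitm2 at 455 and 417 against 276 and 256. B2m, the light chain of class I molecules, was at 86.4 and 76.5 against 42.4 and 40.5, and Irf1, a transcription factor of the response, at 19.3 and 20.5 against 9.41 and 13.2. The peptide transporter gene Tap2 was at 3.53 and 3.03 against 0.86 and 1.35. H2-K1 and H2-D1 rose, but class I genes are close copies of each other and their counts may be shared. Isg15, at 1.88 and 1.68 against 1.28 and 1.25, did not pass.

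The promoter windows of this list were searched on both strands for GAAA, 2 bases of any kind and GAAA, the paired core of the interferon-stimulated response element. Windows were found for 15 of the 19 genes and 7 hold it, against 3.41% of the tested genes with a window. Of the 9 that rose 4 hold it, and of the 6 others 3 do. Interferon response genes were put in this list by design, so here too a higher share comes with the choice of list. Stretches from 3 genes that rose and from H2-T23, which did not pass, are shown because they set the motif beside both outcomes. Capitals mark the match, which for H2-T23 is on the opposite strand, and which starts 139, 124, 46 and 124 bases before the gene start. The stretch of Bst2 holds another match that overlaps the marked one, starts 130 bases before the gene start and is partly in lower case. The windows are chr2:122147528-122147577 on the plus strand, and chr8:71537567-71537616, chr7:140955978-140956027 and chr17:36032796-36032845 on the minus strand.
B2m: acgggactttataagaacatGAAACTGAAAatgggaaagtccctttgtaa
Bst2: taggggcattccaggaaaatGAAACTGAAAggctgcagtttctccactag
Ifitm2: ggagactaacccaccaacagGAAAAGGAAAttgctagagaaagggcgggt
H2-T23: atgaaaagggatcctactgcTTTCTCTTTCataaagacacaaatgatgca
Bst2, the virion tether tetherin, was at 83.6 and 78.6 FPKM against 57.7 and 58.0, and H2-T23, the class Ib gene Qa-1, was at 14.0 and 15.3 against 19.99 and 13.9.

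**Figure D3:**
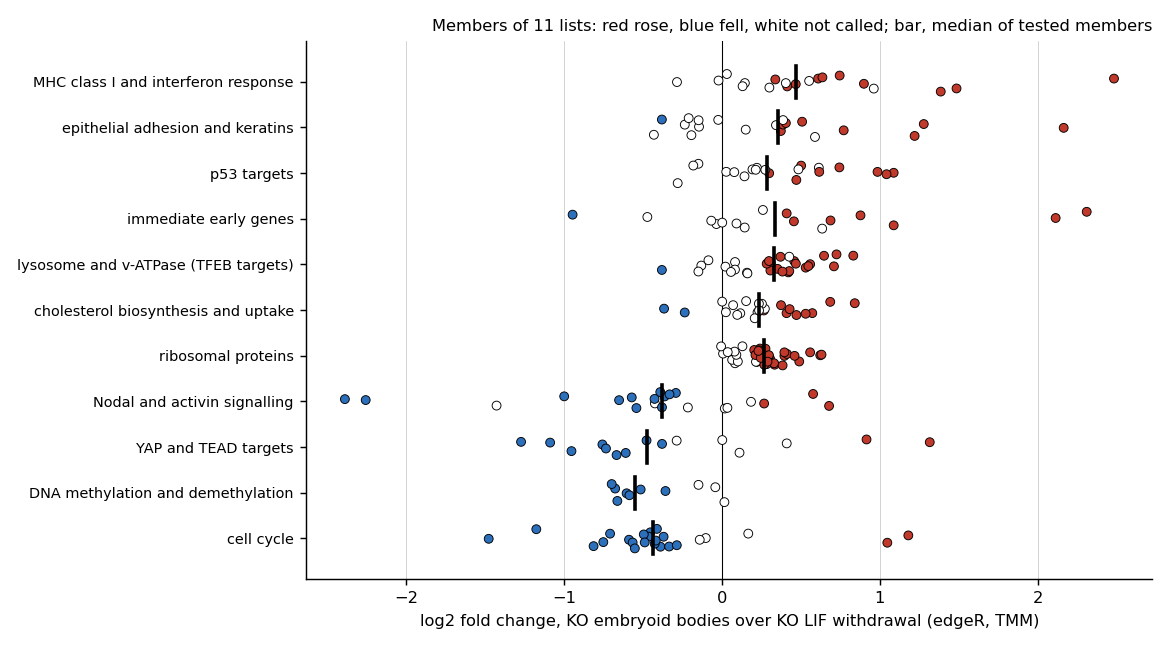
Log2 fold change of every tested member of 11 gene lists, KO embryoid bodies over KO LIF withdrawal, from edgeR. Each point is 1 gene (red rose, blue fell, white did not pass) and the bar is the list's median, from -0.55 for DNA methylation to 0.468 for MHC class I and interferon genes.

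Imprinted genes, expressed from 1 parental copy, were another mixed list: 9 of 25 rose and 5 fell. H19 was at 9.93 and 7.16 FPKM against 3.41 and 3.50, and its neighbour Igf2 fell to 0.38 and 0.31 from 0.85 and 0.59. Meg3 was at 10.8 and 4.51 against 3.02 and 1.89 and Rian, from the same cluster, at 12.2 and 6.39 against 4.04 and 2.47. In both genes the first library of each culture was the higher one. Of 18 germline genes 4 rose and 5 fell, with Hormad1, a meiotic chromosome axis gene, at 7.09 and 6.39 against 19.2 and 20.4. None of the 10 tested genes of the 2-cell-like state was called in edgeR's test.

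Whether the culture difference was that of WT cells was tested as an interaction, the KO difference minus the WT difference. Each WT culture has 1 library, which is assumed to vary like the KO pairs, so this test is weaker. It called 481 of 13990 genes (3.44%): for 295 (2.11%) the KO difference lay above the WT one, and for 186 (1.33%) below it. The count depends on the test, since DESeq2 called 236 and limma on log2(FPKM + 1) called 116. Under library totals alone the split was 389 above and 152 below, and with the length trend removed 221 above and 231 below.

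Naive genes were above in 4 of 17 cases and below in none. Klf2, which rose in KO embryoid bodies, was at 193 FPKM in the WT embryoid bodies and 201 in WT cells without LIF, a difference between genotypes of 1.09 (SE 0.13, edgeR adjusted p = 0.00217). Fgf4, an Oct4 and Sox2 target, was at 97.3 and 87.1 in KO embryoid bodies against 78.2 and 72.8, and at 49.2 against 88.1 in WT. Formative genes were the reverse, with 4 of 15 below and none above: Fgf5 was at 78.8 FPKM in WT embryoid bodies against 21.98 in WT cells without LIF, beside the KO values of 8.11 and 10.5 against 6.04 and 5.29. Of 13 tested streak genes 2, Fst and Foxa2, were below and none was above. Fst, an activin antagonist, was at 29.8 against 7.49 in WT while every KO library of the cultures compared lay at or below 0.21. Its call (edgeR adjusted p = 0.0482) was lost in 8 of 15 alternatives, among them library totals alone and 5 of the 6 fits that leave out a KO library.

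In the FGF and ERK list 9 of 24 genes were below and 3 above. Dusp6, an ERK phosphatase, was at 132 FPKM in WT embryoid bodies against 51.8 in WT cells without LIF, and at 59.5 and 69.4 against 76.7 and 68.2 in KO (difference -1.58, SE 0.17, edgeR adjusted p = 0.00104). Spry4 was at 33.2 against 18.1 in WT, and at 67.4 and 70.1 against 74.6 and 73.8 in KO. Etv4 differed little in WT, 21.0 against 26.1, where KO fell. Epithelial genes were above in 5 of 20 cases and below in none. Cldn6 was at 147 against 114 in WT, so the KO rise started from a far lower level and stayed below WT. Cdh1 was at 188 against 229 in WT. Basement membrane genes were above in 5 of 18 cases: Col4a1 was at 4.0 against 13.7 in WT, a larger fall than in KO. Tagln, an SRF target of contractile cells, was at 3.86 against 47.9 in WT, and between 1.05 and 1.61 in all 4 KO libraries.

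Other genes with large interactions included Wnt6, at 2.73 and 2.42 FPKM against 1.93 and 1.34 in KO and 0.42 against 3.32 in WT (difference 3.55, SE 0.48, edgeR adjusted p = 0.00299). Car2, a carbonic anhydrase, fell in KO to 60.3 and 60.8 from 95.2 and 85.4, and stood at 405 against 130.4 in WT (difference -2.28, edgeR adjusted p = 4.57e-05). Sema6a, a guidance ligand, was at 21.6 against 4.51 in WT and below 0.20 in all 4 KO libraries. Lysosomal genes were above in 2 of 30 cases and ribosomal protein genes in none of 38, and no gene of these 38 was below. A p that misses the threshold does not show that KO and WT responded alike.

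**Figure D4:**
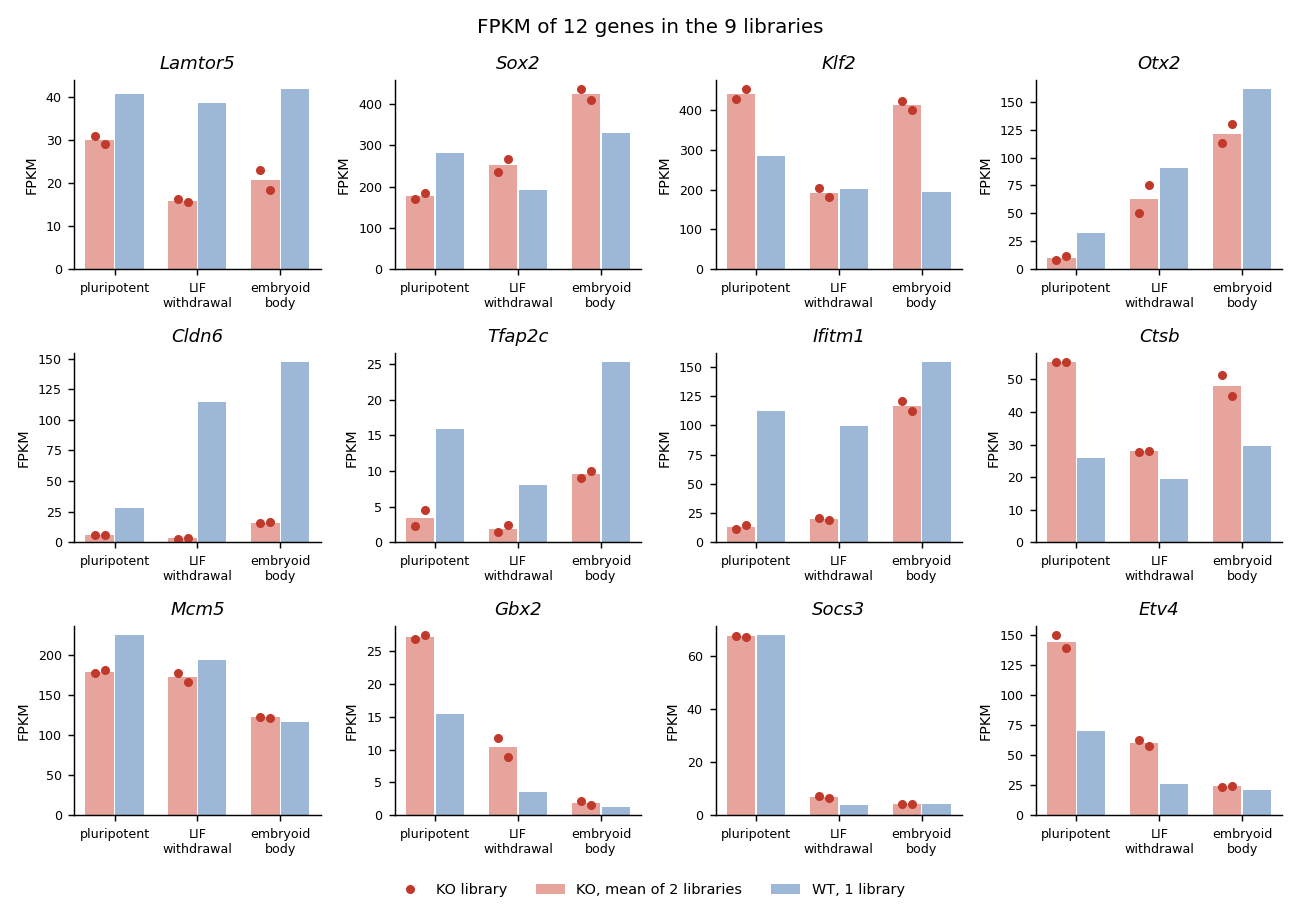
FPKM of 12 genes in the 9 libraries, by culture (pluripotent, LIF withdrawal, embryoid body). Pink bars are the mean of 2 KO libraries, red points each KO library and blue bars the single WT library; Klf2 is high in KO embryoid bodies, 422 and 401, and 193 in WT, while Cldn6 stays at 16.1 and 16.2 in KO against 147 in WT.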

How the data were processed

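The deposited files hold, per gene and library, expected counts (estimated counts that need not be whole) and FPKM values; per the submitters' processing notes the reads were aligned with Bowtie2 to mm8. The counting tool, annotation and strand are not given in the sources used here. Per the labels, total RNA was extracted with a column kit. A gene that a library does not list was set to 0. Names came from the RefSeq GRCm38.p6 table, which matched 20234 of 20287 identifiers directly and 9 by accession. No deposited coordinates were used.

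Expected counts were rounded and fitted in edgeR 4.0.16 (R 4.3.3; quasi-likelihood, TMM factors) over 9 libraries and 6 group means, keeping genes whose mean FPKM over the libraries reached 0.5. A call is a Benjamini-Hochberg adjusted p below 0.05, and SEs were derived from the F statistic. Intervals for counts are 95% exact ones and, like the floor of 3 counts, cover counting error only. DESeq2 1.42.0, limma 3.58.1 on log2(FPKM + pseudocount) of the deposited values, other scalings and filters and left-out libraries were alternatives. Named genes were the 12 largest rises and falls, up to 4 called members per list with the smallest adjusted p, the 6 largest interactions in each direction, and genes that define a list, whether called or not. Members and lists were chosen with earlier results of these data known. Replicate pairs differed by more than counting noise (chi-square per degree of freedom 3.05 to 4.62), so each library was counted once. A few genes that these rules select are not reported here.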

Additional observations from a re-analysis of the deposited data

Results flagged for a closer look

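For 41 genes named by their rank, the culture difference was called as different between KO and WT cells. This rests on edgeR's test of the difference itself (adjusted p below 0.05, 1 WT library per culture). Other genes named above, such as Dusp6, also passed it and are not among the 41. Of the 41, only the 12 named for the size of their interaction were followed gene by gene through the alternatives. For 2 of these 12 the call held in every alternative. Values are the log2 difference of KO minus that of WT. Among pluripotency and lineage genes it was 1.09 for Klf2, 0.88 for Fbxo15, 1.36 for Prdm1, 2.002 for Tek, 1.80 for Cldn6, 1.62 for Crabp1 and -3.86 for Gata6. Among adhesion and matrix genes it was 1.099 for Krt18, 1.42 for Cdh3, 1.105 for Col4a1, 1.14 for Col4a2, 0.95 for Serpinh1, 1.39 for Lima1 and 0.77 for Ptpn14. A positive value means that the KO difference lay above that of WT. In several, Tek, Prdm1, Serpinh1 and Gata6 included, the fitted WT difference had the opposite sign to that of KO.

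Signalling genes stood on both sides. The difference was 1.76 for Fos, 1.29 for Btg2, 1.25 for Id2, 1.26 for Pcsk6, 0.90 for Gli2 and 3.55 for Wnt6. It was -0.83 for Pim1, -0.90 for Socs3, -1.08 for Etv4, -1.02 for Etv1, -1.002 for Spry2 and -3.35 for Fst. The histone demethylase gene Kdm3a gave 0.57. Metabolic genes gave 0.59 for Msmo1 and 0.72 for Psat1. Ifitm1 gave 1.85 and the imprinted gene Magel2 -1.48.

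Of the genes with the largest interactions among those that met the naming conditions, Ly6g6d gave 5.96, Rsc1a1 5.41, Rem2 4.29, Prr15l 4.16 and Anxa8 3.68. On the other side were H2-Q6 at -9.58, Sema6a at -2.75, Snora73a at -2.29, Car2 at -2.28 and Arhgef26 at -1.92. H2-Q6 is listed at 0 FPKM in the WT cells without LIF, so its value depends on the prior count and is no bound. Rsc1a1 and Snora73a overlap other genes, and Prr15l had 25 counts in the KO embryoid bodies and 2 in KO cells without LIF.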

How the results depend on the processing

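The 4793 calls between KO embryoid bodies and KO LIF withdrawal became 2513 in DESeq2, of which 2510 were shared with edgeR, and between 2950 and 4735 when 1 KO library was left out. The lowest counts were without the first embryoid body library (2950) and without the second (2971), which leaves that group with 1 library assumed to vary like the others. RLE size factors, filters, limma, 4 or 6 KO libraries alone and the length trend kept the count within 1.5 times. No shared call changed direction under any of these settings. The 481 interaction calls became 236 in DESeq2, 116 and 71 in limma with pseudocounts of 1 and 0.1, and between 166 and 565 with 1 KO library left out; 166 was without the first embryoid body library, 203 without the second and 306 without the first LIF withdrawal library. Of 149 named genes 128 kept their side of the threshold in every alternative run and none reversed. Most of them were named for a large fold change or a small adjusted p, so this share does not carry over to all calls. Of 12 named interactions 2 kept their side in every alternative, Wnt6 and Car2, and none reversed. Lists changed more: 15 of 39 counts of falls and 17 of 39 counts of rises held within 1.5 times in every alternative. A count of 0 that stayed at 0 was taken as held. Of the 39 median log2 fold changes, 3 stayed in every alternative within the SD of the list's median between replicate libraries. Some median log2 fold changes changed sign. Those of the germline, actin, ATF4 and FGF lists, near 0, did so with scaling. That of neuroectoderm went from 0.327 to -0.279 and that of HOX genes from -0.233 to 0.205 when the FPKM filter was raised to 2, and that of mesoderm from 0.186 to -0.138 without the second LIF withdrawal library.

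Replicate numbers were not taken as pairs, because not every correlation was over 0.1: deviations of same-numbered KO libraries correlated at 0.0945 between LIF withdrawal and embryoid bodies, 0.0953 between pluripotent cells and embryoid bodies and 0.337 between pluripotent cells and LIF withdrawal. With the replicate number as a block, 5741 genes were called between the cultures and 1172 in the interaction.

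Depth limits low genes: Foxa2 had 1 pooled count in the KO embryoid bodies and 6 in KO cells without LIF, a ratio of 6.1 with a counting interval of 0.74 to 281. Each KO group has 2 libraries and each WT group has 1.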

Other observations

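The following are members of lists given above mainly by their counts. In the ATF4 list the cystathionase gene Cth was at 29.8 and 27.9 FPKM in KO embryoid bodies and 47.5 and 38.0 without LIF, while Slc7a3, a transporter of basic amino acids, was at 71.8 and 77.4 against 54.7 and 54.4 and at 8.20 and 11.99 in pluripotent KO cells. Psat1, an enzyme of serine synthesis, was at 33.2 and 35.8 against 41.0 and 40.2 in KO, and at 63.0 against 128 in WT. These 3 KO differences passed in edgeR, with adjusted p of at most 0.0131.

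Among receptors, the Hedgehog transducer Smo was at 8.22 and 9.74 against 12.8 and 14.4 FPKM, and Notch4 at 7.96 and 6.87 against 12.8 and 14.8, both lower in embryoid bodies, while the Hedgehog target Gli1 was higher. The retinoic acid receptors Rarg, at 135 and 129 against 174 and 170.1, and Rxra, at 5.16 and 5.17 against 7.59 and 6.95, were lower as well. Tuba3a, a tubulin of the germline, was at 75.2 and 70.2 against 47.1 and 48.7, and at 16.2 against 16.9 in WT. These KO differences passed too, with edgeR adjusted p of at most 0.00105.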
